A study of Mus musculus with 26 samples.

Results

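Flt3, Kit, Csf1r, Pdgfra and Pdgfrb encode the receptor tyrosine kinases usually grouped as class III, and their messenger RNA was followed across 8 blood progenitor populations of the mouse. The members were taken as every probe set, a group of short array probes read as 1 value, that the array annotation pairs with exactly 1 of these 5 gene symbols. That gave 11 of the 34945 probe sets named with a single gene, and 5 of 18193 genes. Flt3 had 1 probe set, Kit and Pdgfrb had 2 each, and Csf1r and Pdgfra had 3 each.

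The 26 Affymetrix arrays came from C57/Bl6 males aged 2 months, and the labels name no treatment and no altered allele in any group. Bone marrow was the source of 5 MPPFL- arrays and of 3 arrays each for MPPFL+, CMP, GMP and CLP, while thymocytes were the source of 3 arrays each for DN1, DN2 and DN3. MPP is the usual short form for multipotent progenitors, with or without surface Flt3 (FL, read here as Flt3). CMP and GMP stand for the common myeloid and the granulocyte-macrophage progenitor, CLP for the common lymphoid progenitor, and DN1, DN2 and DN3 for early thymocytes that lack Cd4 and Cd8. A further label of the CLP arrays reads ALP, and that of the MPP arrays is spelled MMPFL. The sorting gates and the number of animals behind an array are not given, and no label states that the replicates are different animals, so p-values measure only the spread between these samples. In such bulk samples, fewer cells that carry a transcript and less of it per cell cannot be told apart. Surface Flt3 and Kit are conventional sorting markers for these cells, so differences in their transcripts may be set by the gates, which was not tested.

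Receptors of this class carry immunoglobulin-like domains outside the cell and a kinase domain split by an insert inside it. A dimeric ligand brings receptor chains together, and the phosphorylated tails then dock phosphatidylinositol 3-kinase, Src family kinases and Ras adaptors. Flt3 is known for its part in lymphoid and dendritic cell development, Kit for the upkeep of stem cells, mast cells and early thymocytes, and Csf1r for monocytes and macrophages. Pdgfra and Pdgfrb, the receptors of platelet-derived growth factor, are best known from mesenchymal cells and pericytes.

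The title of the series names a map of DNA methylation, which acts on CpG dinucleotides, and the methylation data were not analysed here. To show where CpG lie, the 250 bases before the RefSeq start of Flt3 and Kit, conventional sorting markers for such cells, are printed. They run 5′ to 3′ and come from the RefSeq table for GRCm38.p6, with each CpG in capitals. Flt3 lies at chr5:147400490-147400739 on the minus strand and Kit at chr5:75574737-75574986 on the plus strand, where the more upstream of the 2 starts listed for Kit was used.
Flt3: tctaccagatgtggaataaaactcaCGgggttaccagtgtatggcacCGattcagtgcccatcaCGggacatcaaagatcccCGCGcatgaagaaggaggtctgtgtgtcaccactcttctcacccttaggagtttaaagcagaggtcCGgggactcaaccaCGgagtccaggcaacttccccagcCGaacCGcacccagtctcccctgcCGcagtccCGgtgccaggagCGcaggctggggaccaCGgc
Kit: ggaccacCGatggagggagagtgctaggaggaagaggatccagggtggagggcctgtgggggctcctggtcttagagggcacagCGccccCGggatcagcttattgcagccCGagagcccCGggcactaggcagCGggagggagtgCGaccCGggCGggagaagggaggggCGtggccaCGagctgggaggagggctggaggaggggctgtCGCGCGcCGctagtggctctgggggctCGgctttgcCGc
The Flt3 window held 13 CpG and 59.2% G or C, and the Kit window held 17 CpG and 70.8%. Among 27025 windows of the same length the median was 6 CpG, with 68.2% of windows holding fewer than Flt3 and 76.4% holding fewer than Kit. GAGGAA, a core bound by Ets factors of the PU.1 type, occurred 0 times before Flt3 and 1 time before Kit on either strand, against 23.1% of all windows with a match. The Runx core TGTGGT occurred in neither window, against 14.2% of all windows. The Gata core AGATAA was likewise found in neither, against 10.3% of all windows. Such a match is only a run of letters, and its absence says only that these letters are not in this window.

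Levels are on the log2 scale as deposited, with array medians between 2.74 and 3.04. On each array, 30.2% to 37.1% of the probe sets held 1 shared lowest value of 2.17, called the floor here. Each of the 26 arrays resembled an array of its own population most (r between 0.975 and 0.997 within populations over all probe sets). Xist, transcribed from an inactive X chromosome, went against the male label at 12.21 and 13.59 on DN1 replicates 1 and 3 and at 12.99 and 6.30 on DN2 replicates 2 and 3, while all other arrays were at 4.45 or lower. Tests with DN1 or DN2 were therefore also run without these 4 arrays, for the gene lists as an alternative chosen after seeing the data, which leaves DN1 and DN2 with 1 array each that is taken to vary like the other populations. Such a fit holds no spread within DN1 or DN2, so a call kept or lost in it is not a replication. The spike-in control probe sets split the arrays into 6 clusters, of which 1 held MPPFL-, MPPFL+ and CLP, and another held DN1 and DN2. The 3′ minus 5′ difference of the actin control probe sets averaged between 1.49 in GMP and 3.74 in MPPFL-. On DN1 replicates 1, 2 and 3 it was 2.48, 3.72 and 1.59 for actin and 3.82, 4.63 and 1.68 for Gapdh. On DN2 replicates 1, 2 and 3 it was 3.14, 2.57 and 2.49 for actin. DN1 replicate 2 and DN2 replicate 1, the arrays kept when the Xist arrays were left out, were thus the highest of their populations. The part of this difference in the results was not tested. Of 9 measured marker genes listed as checks of the labels, some are given here. Mpo, a myeloid peroxidase, was at 16.11 in GMP, and Il7r, the interleukin 7 receptor, at 13.23 in CLP. Il2ra (CD25) was at 7.37, 13.14 and 13.16 in DN1, DN2 and DN3, and Cd3e, a chain of the T cell receptor complex, at 9.52 in DN3. The part of the sorting gates in these levels was not tested.

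Flt3, the receptor of Flt3 ligand, was measured by probe set 1419538_at and was at least 1031-fold higher in CLP, its highest population, than in DN3, its lowest. A fold is written as "at least" where every array of the lower population was at most 1 log2 unit above the low end of the probe set. The low end is the lowest value that recurs on 2 or more arrays, or the lowest value where none recurs, if it is under 4, a rule chosen after the values had been seen. The MPPFL- arrays read 11.64, 10.71, 11.04, 10.69 and 10.90, and the MPPFL+ arrays 13.43, 13.53 and 12.99. Flt3 read 10.77, 10.69 and 10.83 in CMP and 4.78, 4.43 and 5.48 in GMP. The marrow populations thus fell into a high pair, a middle level and GMP far under both. In CLP the arrays read 13.60, 13.56 and 13.58, in DN1 10.44, 10.65 and 11.02, in DN2 5.85, 4.07 and 3.51, and in DN3 3.51, 3.69 and 3.51. The populations ordered as CLP, MPPFL+, MPPFL-, CMP, DN1, GMP, DN2 and DN3, with means of 13.58 ± 0.02, 13.31 ± 0.29, 10.99 ± 0.39, 10.76 ± 0.07, 10.70 ± 0.29, 4.90 ± 0.53, 4.47 ± 1.22 and 3.57 ± 0.10 (SD, n = 5 for MPPFL- and 3 otherwise). Neighbours in that order differed by an adjusted p under 0.05 at 2 places only, between MPPFL+ and MPPFL- and between DN1 and GMP, where the gap was 5.81 log2 units. CLP and MPPFL+ did not overlap but were 0.26 apart and did not pass, and the remaining neighbours overlapped.

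**Figure D1:**
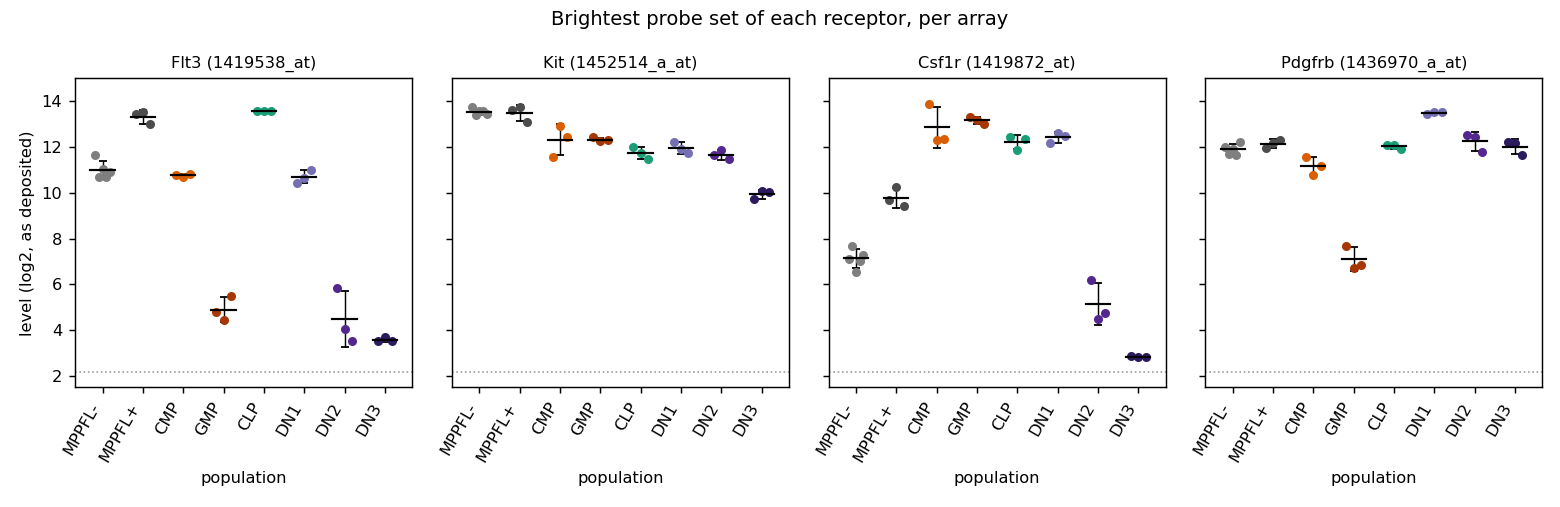
Each point is 1 array, with the log2 level as deposited on the vertical axis and the 8 populations on the horizontal axis, for the brightest probe set of Flt3, Kit, Csf1r and Pdgfrb. Horizontal bars are means, error bars are SDs (n = 5 for MPPFL- and 3 otherwise), and the dotted line is the lowest value of the table, 2.17. Flt3 was under 6 in GMP, DN2 and DN3 alone, Kit kept within 9.72 to 13.75 on all arrays, Csf1r was over 11 in CMP, GMP, CLP and DN1, and Pdgfrb was under 8 in GMP alone.

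Kit, the receptor of stem cell factor, had the narrowest range of the 4 receptors that were well above the floor. On its brighter probe set, 1452514_a_at, the arrays read 13.75, 13.39, 13.57, 13.57 and 13.44 in MPPFL- and 13.60, 13.75 and 13.09 in MPPFL+. CMP arrays read 11.59, 12.91 and 12.46, and GMP arrays 12.42, 12.26 and 12.29. Both MPP populations lay above every other array of the table for this probe set. Kit read 12.01, 11.75 and 11.48 in CLP, 12.22, 11.93 and 11.73 in DN1, 11.64, 11.89 and 11.46 in DN2 and 9.72, 10.09 and 10.03 in DN3. The order was MPPFL- (13.54 ± 0.14), MPPFL+ (13.48 ± 0.34), GMP (12.32 ± 0.09), CMP (12.32 ± 0.67), DN1 (11.96 ± 0.25), CLP (11.75 ± 0.26), DN2 (11.66 ± 0.21) and DN3 (9.95 ± 0.20). Only 2 steps of that order passed, from MPPFL+ down to GMP (gap 1.16, adjusted p = 0.00135) and from DN2 down to DN3 (gap 1.72, adjusted p = 2.51e-05), and all other neighbours overlapped. The dimmer probe set, 1415900_a_at, put the populations in nearly that order, with means from 7.33 ± 0.35 in MPPFL- to 3.33 ± 0.43 in DN3. Its only step between neighbours that passed lay from GMP down to DN1 (gap 1.31, adjusted p = 0.0165). The 8 population means of the 2 probe sets had a Pearson correlation of 0.934, as a description over arrays that the probe sets share.

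Csf1r, the receptor of Csf1 and Il34, was at least 1283-fold higher in GMP than in DN3 on its brightest probe set, 1419872_at. The arrays read 7.11, 7.69, 6.56, 7.03 and 7.29 in MPPFL- and 9.67, 10.27 and 9.41 in MPPFL+. They read 13.90, 12.33 and 12.37 in CMP and 13.30, 13.16 and 13.03 in GMP. Each of these marrow steps was upward, and only CMP and GMP overlapped. CLP was at 12.45, 11.88 and 12.34, DN1 at 12.17, 12.62 and 12.50, DN2 at 6.20, 4.48 and 4.76, and DN3 at 2.85, 2.83 and 2.83. GMP (13.16 ± 0.14), CMP (12.87 ± 0.90), DN1 (12.43 ± 0.23) and CLP (12.22 ± 0.30) formed a top group of overlapping neighbours. MPPFL+ (9.78 ± 0.44), MPPFL- (7.14 ± 0.41), DN2 (5.15 ± 0.92) and DN3 (2.84 ± 0.01) followed, each apart from its neighbour by a passed difference.

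The other Csf1r probe sets kept GMP, CMP and CLP at the top and placed DN1 lower. Probe set 1419873_s_at, whose suffix marks probes that can match more than 1 transcript, had means of 11.39 ± 0.29 in GMP, 10.72 ± 0.29 in CMP, 10.30 ± 0.44 in CLP, 9.40 ± 0.27 in DN1 and 7.65 ± 0.44 in MPPFL+. MPPFL- (3.80 ± 0.33), DN2 (3.76 ± 0.41) and DN3 (3.18 ± 0.61) overlapped at its low end. Probe set 1423593_a_at had 10.18 ± 0.21 in GMP, 9.01 ± 0.32 in CMP, 8.03 ± 0.55 in CLP, 5.94 ± 0.31 in DN1 and 5.30 ± 0.71 in MPPFL+, and 4.30 ± 0.55 or less elsewhere. Correlations of the 8 population means between the 3 Csf1r probe sets were 0.964, 0.845 and 0.921.

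Pdgfrb, a receptor of platelet-derived growth factor, was low in GMP and, on its brighter probe set alone, well above the floor in all 8 populations. On its brighter probe set, 1436970_a_at, the arrays read 12.004, 11.68, 11.94, 11.65 and 12.22 in MPPFL- and 11.95, 12.18 and 12.32 in MPPFL+. CMP arrays were at 11.57, 10.76 and 11.19, and GMP arrays at 7.70, 6.72 and 6.87. GMP thus stood apart from each other population by more than 3 log2 units on every array. CLP read 12.08, 12.10 and 11.92, DN1 13.45, 13.53 and 13.52, DN2 12.53, 12.44 and 11.77, and DN3 12.22, 12.19 and 11.63. DN1 (13.50 ± 0.04) was highest, and DN2 (12.25 ± 0.41), MPPFL+ (12.15 ± 0.19), CLP (12.03 ± 0.10), DN3 (12.01 ± 0.33) and MPPFL- (11.90 ± 0.24) overlapped as neighbours. CMP (11.18 ± 0.41) lay 0.72 lower, without overlap (adjusted p = 0.0238), and GMP (7.10 ± 0.53) lay 4.08 lower again.

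The dimmer Pdgfrb probe set, 1417148_at, also had its highest mean in DN1 (8.98 ± 0.31) and its lowest in GMP (3.19 ± 0.40). Between them stood DN3 (8.50 ± 0.44), CLP (8.08 ± 0.16), MPPFL+ (7.57 ± 0.42), DN2 (7.25 ± 0.57), CMP (7.03 ± 0.66) and MPPFL- (6.91 ± 0.34), neighbours that overlapped throughout. The 8 population means of the 2 probe sets had a correlation of 0.960. Stromal cells are the usual source of Pdgfrb, and Col1a1, Col1a2 and Col3a1, fibrillar collagen chains, had population means of 2.17 to 2.49, while Dcn and Lum, matrix proteoglycans, and Lepr, the leptin receptor of marrow stroma, had means of 2.17 or 2.18. Over the 14 measured markers of stroma, epithelium and endothelium, the mean level per array ran from 2.48 to 3.51, and 4 to 10 of them were at the floor on all arrays of a population. Krt18, an intermediate filament protein, with means of 3.14 to 10.85, Vcam1, an adhesion molecule, with 2.17 to 11.55, and Epcam, at 10.61 in DN3, were the members of that list with high levels. The part of stromal cells in the Pdgfrb level was not tested.

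Pdgfra, the other receptor of platelet-derived growth factor, was at or near the floor in every population. Its 3 probe sets, 1438946_at, 1421917_at and 1421916_at, reached at most 3.02, 2.51 and 2.46 on any array. They were at the floor on 1, 21 and 22 of 26 arrays and above the median of all values, 2.83, on 1, 0 and 0 arrays. No Pdgfra probe set passed in any of the 28 pairs of populations. Values this close to the floor give no order of the populations.

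**Figure D2:**
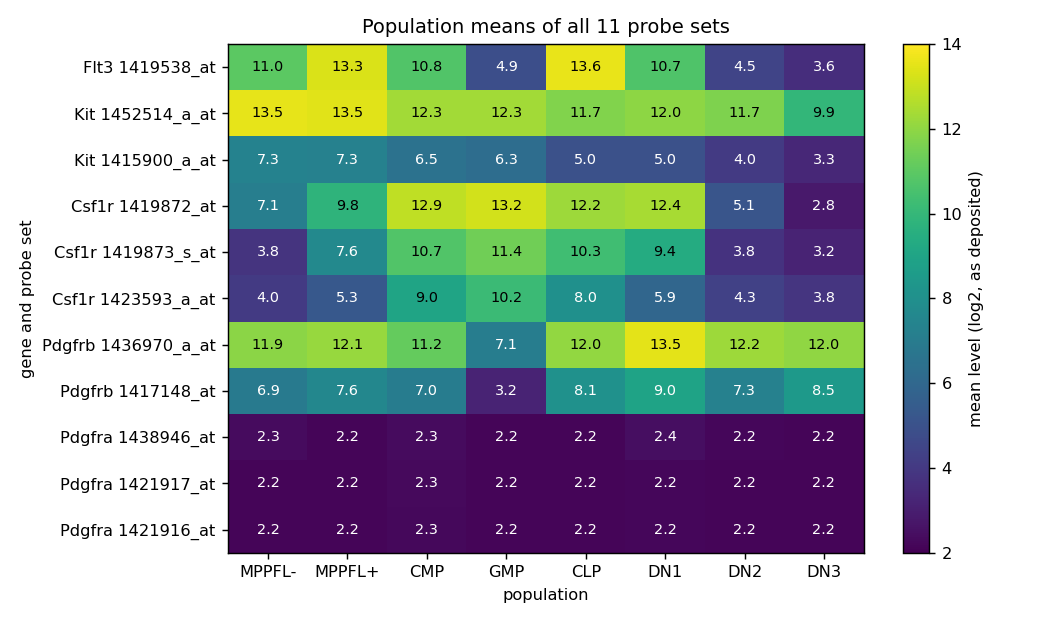
Rows are the 11 probe sets of the 5 genes, columns the 8 populations, and each cell gives the mean log2 level (n = 5 arrays for MPPFL- and 3 otherwise), also coded by colour. The Flt3 row drops to 4.9 in GMP and to 4.5 and 3.6 in DN2 and DN3, the Csf1r rows have their highest means in GMP and CMP, the Pdgfrb rows are low in GMP, and the Pdgfra rows stay under 2.5.

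The 8 comparisons followed the usual scheme of blood cell formation. In what follows, a difference is the log2 level of the first named population minus that of the second, and "rose" and "fell" are used where the limma fit gave an adjusted p under 0.05 over all 45037 probe sets. The comparisons share arrays, so their results are not independent of each other.

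MPPFL+ cells carried more Flt3 and more Csf1r transcript than MPPFL- cells. Flt3 rose by 2.32 (SE 0.36, adjusted p = 0.000148), a 4.99-fold difference in arrays that did not overlap. Csf1r rose on all 3 probe sets, by 2.65 on 1419872_at (6.27-fold, SE 0.37, adjusted p = 4.41e-05) and by 3.85 on 1419873_s_at (at least 14.4-fold, SE 0.28, adjusted p = 1.88e-08). On 1423593_a_at, whose arrays read 4.52, 5.89 and 5.49 in MPPFL+ and 3.84 to 4.48 in MPPFL-, Csf1r was at least 2.42-fold higher (difference 1.27, SE 0.29, adjusted p = 0.00501). Kit differed by -0.06 and -0.05 and Pdgfrb by 0.25 and 0.66, with overlapping arrays and adjusted p-values of 1, 1, 0.709 and 0.2. In all, 4 of the 11 probe sets passed, all higher, where 15% of all probe sets passed in either direction. The call on 1423593_a_at was lost without MPPFL+ replicate 2 (0.98, adjusted p = 0.0602). All 4 calls held when only the arrays of the spike-in cluster shared by these populations were fitted.

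Toward CMP, Csf1r went up again while Flt3, Kit and Pdgfrb went down. Csf1r rose by 3.08, 3.08 and 3.71 in CMP against MPPFL+ on 1419872_at, 1419873_s_at and 1423593_a_at (8.47-fold, 8.43-fold and 13.1-fold; adjusted p = 2.78e-05, 1.39e-06 and 2.21e-07). On 1423593_a_at the arrays read 8.72, 9.35 and 8.96 in CMP and 4.52, 5.89 and 5.49 in MPPFL+. Flt3 fell by 2.55 (5.85-fold, SE 0.40, adjusted p = 0.000173). Kit fell by 1.16 on 1452514_a_at (2.24-fold, SE 0.25, adjusted p = 0.00232), with a difference of -0.78 on 1415900_a_at that did not pass (adjusted p = 0.210). Pdgfrb fell by 0.97 on 1436970_a_at (1.96-fold, SE 0.25, adjusted p = 0.0109), with -0.54 on 1417148_at (adjusted p = 0.348). Among the 11 probe sets 6 passed, 3 higher and 3 lower, beside 16% of all probe sets. CMP replicate 1 had the highest Csf1r and the lowest Kit of its population on the brightest probe sets, and the opposite on Csf1r 1423593_a_at (8.72, lowest) and Kit 1415900_a_at (7.32, highest). That array also had the highest median of all arrays (3.04), the smallest share at the floor (30.2%) and a spike-in cluster of its own. The part of these traits in the values was not tested. The Pdgfrb call was lost without CMP replicate 2 (-0.76, adjusted p = 0.0502), and the calls on Kit, Csf1r 1419872_at and Pdgfrb were lost in a fit to these 6 arrays alone (adjusted p = 0.305, 0.0827 and 0.164). Of all 45037 probe sets 1225 passed in that last fit, against 7205 in the fit to all arrays. In the fit to all arrays, 2206 were higher and 4999 lower in CMP, which became 3234 and 3806 after quantile normalization.

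Between GMP and CMP, Flt3 and Pdgfrb changed most. Flt3 fell by 5.87 (58.4-fold, SE 0.40, adjusted p = 3.03e-09), to 4.43 to 5.48 in GMP against 10.69 to 10.83 in CMP. Pdgfrb fell by 4.08 on 1436970_a_at (16.9-fold, SE 0.25, adjusted p = 6.06e-10). On 1417148_at Pdgfrb read 2.77, 3.56 and 3.25 in GMP against 6.40, 6.96 and 7.72 in CMP, at least 14.3-fold lower (adjusted p = 1.48e-07). Csf1r differed by 0.30, 0.66 and 1.17 on its 3 probe sets, and only 1423593_a_at passed, with 10.35, 10.24 and 9.94 in GMP against 8.72, 9.35 and 8.96 in CMP (adjusted p = 0.870, 0.176 and 0.0186). Kit differed by 0.01 and -0.22 (SE 0.25 and 0.40, adjusted p = 1 for both). Of the 11 probe sets 4 passed, 1 higher and 3 lower, beside 16.2% of all probe sets. The Csf1r call was lost without CMP replicate 1 (1.02, adjusted p = 0.0773), GMP replicate 1 (1.08, adjusted p = 0.0674) or GMP replicate 2 (1.14, adjusted p = 0.0551). Beside Csf1r, the mean of 11 macrophage and monocyte markers was 5.82 to 5.89 per array in GMP and 4.88 to 4.96 in CMP, with Adgre1 (F4/80) at 9.03 and 6.12 and Cd14 at 7.46 and 2.58 in that order of populations, and Marco and C1qc at the floor in both. Of the 11 markers 4 passed as higher and 1 as lower in GMP, where 12.9% and 7.23% of all genes did. The part of these markers in the result was not tested.

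On the lymphoid side, CLP had less Kit and more Csf1r than MPPFL+, with Flt3 high in both. Kit fell by 1.73 on 1452514_a_at (3.33-fold, SE 0.25, adjusted p = 0.000103). On 1415900_a_at Kit read 5.66, 4.63 and 4.63 in CLP against 7.55, 7.62 and 6.69 in MPPFL+, a fall of 2.32 (4.98-fold, SE 0.40, adjusted p = 0.000871). Csf1r rose by 2.44, 2.65 and 2.73 (5.43-fold, 6.28-fold and 6.62-fold; adjusted p = 0.000727, 1.37e-05 and 1.54e-05), and on 1419873_s_at its arrays read 10.45, 9.80 and 10.64 in CLP against 7.56, 8.13 and 7.26 in MPPFL+. Flt3 differed by 0.26 (SE 0.40, adjusted p = 1) and Pdgfrb by -0.12 and 0.51 (adjusted p = 1 and 0.819). With 3 higher and 2 lower, 5 of the 11 probe sets passed, beside 4.11% of all probe sets. All 5 held among the arrays of their common spike-in cluster, and 0 of 11 passed in a fit to these 6 arrays alone. Of all 45037 probe sets 649 passed in that last fit, against 1852 in the fit to all arrays, so calls were lost generally. Beside Csf1r, the mean of the macrophage and monocyte markers was 4.39 to 4.47 in CLP and 4.83 to 4.93 in MPPFL+. Of these 11 markers 1 passed as higher and 4 as lower in CLP, where 2.31% and 3.66% of all genes did. The mean of 8 dendritic cell markers was 6.01 to 6.14 in CLP and 5.03 to 5.38 in MPPFL+. Of these 8 markers 2 passed as higher and 0 as lower, and the median difference was -0.0008. Siglech, of plasmacytoid dendritic cells, was at 5.26 in CLP and 2.17 in MPPFL+. Itgax (CD11c) was at 7.21 and 3.02 in the same order, and Xcr1 and Cd209a at 2.17 in both. The part of dendritic cells in the Csf1r level was not tested.

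DN1 thymocytes differed from CLP by lower Flt3 and higher Pdgfrb. Flt3 fell by 2.87 (7.33-fold, SE 0.40, adjusted p = 2.81e-05). Pdgfrb rose by 1.47 on 1436970_a_at (2.76-fold, SE 0.25, adjusted p = 0.000218), and 1417148_at, at 8.74, 8.88 and 9.33 in DN1 against 7.91, 8.12 and 8.22 in CLP, was 0.90 higher and did not pass (adjusted p = 0.0702). The Csf1r probe sets disagreed: 1419872_at differed by 0.20 (adjusted p = 1), 1419873_s_at fell by 0.90 (adjusted p = 0.0474) and 1423593_a_at fell by 2.09 (4.25-fold, adjusted p = 9.24e-05). On 1423593_a_at the arrays read 6.13, 5.58 and 6.10 in DN1 against 8.31, 7.40 and 8.38 in CLP. Kit differed by 0.21 and 0.01 (adjusted p = 0.779 and 1). Of the 11 probe sets 4 passed, 1 higher and 3 lower, beside 23.1% of all probe sets. Without the DN1 and DN2 arrays with Xist, which keeps DN1 replicate 2 alone, Flt3 differed by -2.93. Pdgfrb on 1436970_a_at differed by 1.5 and Csf1r on 1423593_a_at by -2.44 without the Xist arrays. The call on 1419873_s_at was lost there (-0.97, adjusted p = 0.182) and without CLP replicate 1 or 3 or DN1 replicate 1 or 2 (-0.82, -0.72, -0.78 and -0.86, adjusted p = 0.139, 0.194, 0.143 and 0.114).

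From DN1 to DN2 each probe set of Flt3, Csf1r and Pdgfrb was lower, while Kit passed on neither of its own. Flt3 fell by 6.23 (75.1-fold, SE 0.40, adjusted p = 4.46e-09). Csf1r fell by 7.28 on 1419872_at (155-fold, SE 0.41, adjusted p = 5.66e-10) and fell by 5.64 on 1419873_s_at (at least 49.96-fold, SE 0.32, adjusted p = 5.15e-10). On 1419873_s_at the arrays read 4.22, 3.45 and 3.61 in DN2 against 9.18, 9.33 and 9.70 in DN1, and on 1423593_a_at Csf1r fell by 1.64 (at least 3.12-fold, adjusted p = 0.00419). Pdgfrb fell by 1.25 on 1436970_a_at (2.38-fold, adjusted p = 0.0043) and fell by 1.73 on 1417148_at (3.31-fold, adjusted p = 0.00401), and the brighter probe set still read 11.77 to 12.53 in DN2. Kit differed by -0.30 and -0.95 (adjusted p = 0.690 and 0.233). In all, 6 of the 11 probe sets passed, all lower, beside 5.48% of all probe sets.

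DN2 replicate 1, the only DN2 array without Xist, had the highest value of its population for Flt3 and for all 3 Csf1r probe sets. Without the DN1 and DN2 arrays with Xist, Flt3 differed by -4.81 and Csf1r by -6.42 and -5.11 on its brighter probe sets. The calls on Csf1r 1423593_a_at (-0.65, adjusted p = 1) and on Pdgfrb (-0.996 and -1.69, adjusted p = 0.303 and 0.116) were lost. In a fit to the DN1 and DN2 arrays alone, 2 of the 11 probe sets passed, both of Csf1r. Flt3 had an adjusted p of 0.0626 there. Of all 45037 probe sets 297 passed in that fit, against 2470 in the fit to all arrays, so calls were lost generally. The mean of the 11 macrophage and monocyte markers was 3.50 to 3.72 in DN2 and 3.69 to 4.01 in DN1. C1qa, C1qc and Marco were at the floor in both. Of the 11 markers 0 passed as higher and 1 as lower in DN2, where 3.57% and 3.79% of all genes did. The part of these markers in the Csf1r difference was not tested.

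DN3 had the least Kit and the least Csf1r. Kit fell by 1.72 in DN3 against DN2 on 1452514_a_at (3.29-fold, SE 0.25, adjusted p = 2.51e-05), and on 1415900_a_at it read 2.95, 3.23 and 3.80 in DN3 against 3.77, 4.67 and 3.69 in DN2 (difference -0.71, adjusted p = 0.236). Csf1r on 1419872_at was at least 4.96-fold lower (difference -2.31, SE 0.41, adjusted p = 0.000268), and its other probe sets, already low in DN2, differed by -0.58 and -0.45 (adjusted p = 0.224 and 0.430). Flt3 differed by -0.91 (adjusted p = 0.128). The Pdgfrb probe sets disagreed, since 1417148_at rose by 1.25 (2.37-fold, SE 0.34, adjusted p = 0.011), with 8.63, 8.86 and 8.00 in DN3 against 7.19, 7.86 and 6.71 in DN2, while 1436970_a_at differed by -0.23 (adjusted p = 0.713). Of the 11 probe sets 3 passed, 1 higher and 2 lower, beside 23.9% of all probe sets. Leaving out the Xist arrays kept DN2 replicate 1 alone, which had the highest Flt3 of DN2 (5.85, against 4.07 and 3.51). Without the Xist arrays the Flt3 difference was -2.28, that of Csf1r on 1419872_at -3.36 and that of Kit on 1452514_a_at -1.69. The Pdgfrb call was lost there (1.31, adjusted p = 0.0771), without DN2 replicate 3 (0.98, adjusted p = 0.0698) and without DN3 replicate 2 (1.07, adjusted p = 0.0589). In a fit to the 6 DN3 and DN2 arrays alone the Csf1r and Pdgfrb calls were lost (adjusted p = 0.059 and 0.145). Of all 45037 probe sets 6107 passed in that fit, against 10763 in the fit to all arrays.

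Set directly against GMP, CLP had far more Flt3 and Pdgfrb and somewhat less Csf1r and Kit. Flt3 rose by 8.68 (410-fold, SE 0.40, adjusted p = 4.26e-12), with 13.56 to 13.60 in CLP against 4.43 to 5.48 in GMP. Pdgfrb rose by 4.94 on 1436970_a_at (30.6-fold, SE 0.25, adjusted p = 1.79e-11) and was at least 29.6-fold higher on 1417148_at, at 7.91, 8.12 and 8.22 in CLP against 2.77, 3.56 and 3.25 in GMP (adjusted p = 2.21e-09). Csf1r fell by 1.09 on 1419873_s_at (2.13-fold, adjusted p = 0.017) and fell by 2.15 on 1423593_a_at (4.43-fold, adjusted p = 5.96e-05), with -0.94 on 1419872_at (adjusted p = 0.134). Kit fell by 1.32 on 1415900_a_at (2.50-fold, adjusted p = 0.0207), with -0.58 on 1452514_a_at (adjusted p = 0.120). Of the 11 probe sets 6 passed, 3 higher and 3 lower, beside 20.8% of all probe sets. The Kit call was lost without GMP replicate 1 (-1.05, adjusted p = 0.113), CLP replicate 2 (-1.15, adjusted p = 0.0926) or CLP replicate 3 (-1.15, adjusted p = 0.0902), and that of 1419873_s_at without GMP replicate 1 (-0.94, adjusted p = 0.079) or CLP replicate 2 (-0.84, adjusted p = 0.108).

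**Figure D3:**
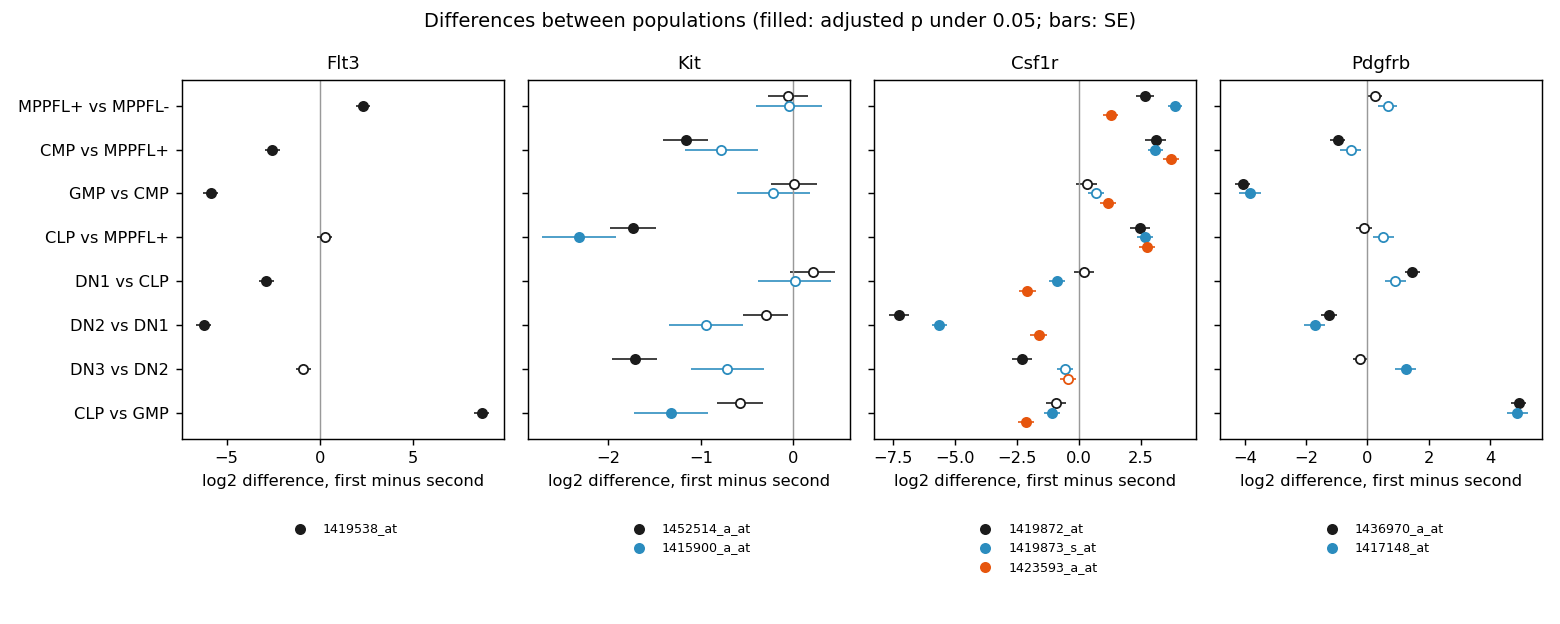
Each row is 1 of the 8 comparisons and each panel 1 receptor, with the log2 difference, first named population minus second, on the horizontal axis. Colours are probe sets, horizontal lines are SEs of the limma fit over 26 arrays, and filled points passed at an adjusted p under 0.05. Flt3 has its largest differences in CLP against GMP (8.68) and DN2 against DN1 (-6.23), Csf1r in DN2 against DN1 (-7.28), Pdgfrb in CLP against GMP (4.94) and GMP against CMP (-4.08), while no Kit difference exceeds 2.32 in size.

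The genes around the receptors were read from lists of general knowledge, each gene by its brightest probe set. The median difference over all 18193 genes was 0 to 2 decimals in each comparison. Of the ligands, 7 of 8 were measured, and 3 of these were near the floor in all or nearly all populations. Where the lower population was at its low end by the rule given for folds, the size of a difference is a lower bound and is called a bound. Kitl (stem cell factor) had means of 2.17 to 2.20 and Pdgfb, a platelet-derived growth factor chain, 2.17 to 2.27. Il34, a ligand of Csf1r, was at the floor on all arrays of 7 populations and at 3.62 in DN3 (in DN3 against DN2 a bound of 1.45, adjusted p = 1.91e-07). Csf1 itself had means of 2.57 to 4.20 and passed in no comparison. Pdgfd, a ligand of Pdgfrb, was at 5.33 ± 1.23 in MPPFL+ and 6.67 ± 0.43 in MPPFL- (difference -1.34, adjusted p = 0.0391), and it was lower again in CMP (2.86) and CLP (2.24) than in MPPFL+ (-2.47, and a bound of -3.09 in CLP, adjusted p = 0.00111 and 0.000271). Pdgfc, a ligand of Pdgfra, was highest in CLP (5.71 ± 0.34) and MPPFL+ (5.07 ± 0.14). It rose by 1.16 in MPPFL+ against MPPFL-, with bounds of 2.25 in CLP against GMP, -1.53 in CMP against MPPFL+ and -2.10 in DN1 against CLP, all of which passed. Pdgfa, the remaining chain, passed with bounds of 2.99 in DN3 against DN2 (5.77 and 2.79, adjusted p = 3.33e-06), 1.22 in CLP against GMP and -1.22 in DN1 against CLP. The Pdgfa call in DN1 against CLP was lost without the Xist arrays (-1.11). In the same fit Pdgfc differed by -2.10 in DN1 against CLP. Il34 differed by 1.45 and Pdgfa by 3.17 in DN3 against DN2. No ligand passed in GMP against CMP or in DN2 against DN1, where 20.2% and 7.37% of all genes passed.

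Transcription factors known to act on the receptor genes were listed as 17 genes, all measured. In DN2 against DN1, 0 were higher and 6 lower (median -0.50), where 3.57% of all genes were higher and 3.79% lower. Meis1, a homeodomain partner of Hox proteins, fell by 4.47, and Lmo2, a bridge of blood factor complexes, differed by -4.08, Hoxa9 by -2.12, and Spi1 (PU.1), a known activator of Csf1r, by -1.85 (adjusted p = 9.14e-09, 2.61e-10, 4.12e-07 and 0.0018). Without the Xist arrays the differences were -4.33 for Meis1, -3.80 for Lmo2, -2.11 for Hoxa9 and -1.36 for Spi1, whose call was lost. In DN3 against DN2, 3 were higher and 7 lower (16.1% and 13.7% of all genes). Lyl1 was at 2.66 in DN3 and 10.46 in DN2, and Hoxa9 at 6.52 and 12.31 in that order. Tal1 was at 2.60 and 8.30, and Lmo2 at 2.72 and 7.57. With the Xist arrays left out, Lyl1, Hoxa9, Tal1 and Lmo2 were again lower in DN3, with a difference of -5.95 for Hoxa9. In GMP against CMP, 2 were higher and 7 lower (12.9% and 7.23% of all genes), with differences of -5.08 for Gata1, -3.49 for Gata2, -3.44 for Meis1 and -2.80 for Tal1, all known from erythroid or stem cells. In CMP against MPPFL+, 5 were higher and 6 lower (4.82% and 17.2%), with Gata1 up by a bound of 6.91, Runx1 up by 2.69, Irf8 up by 2.49 and Cebpa, a myeloid factor, up by 2.17.

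In CLP against MPPFL+, 1 factor was higher and 5 lower (2.31% and 3.66% of all genes), with differences of 3.67 for Irf8, -3.52 for Gata2, -1.95 for Cebpa and -1.65 for Tal1. In DN1 against CLP, 2 were higher and 9 lower (7.79% and 18.3%), with differences of -6.20 for Irf8, known from dendritic cells and monocytes, bounds of 5.59 for Egr2 and -2.30 for Cebpa, and -1.79 for Meis1. With the Xist arrays left out, and DN1 as 1 array, the differences were -6.48 for Irf8, 7.33 for Egr2, -2.27 for Cebpa and -1.47 for Meis1. In MPPFL+ against MPPFL-, 4 were higher and 4 lower (10.4% and 5.13%), with a bound of -4.45 for Gata1, 2.90 for Irf8, -2.27 for Runx1 and 2.08 for Cebpa. In CLP against GMP, 6 were higher and 5 lower (15.9% and 11.1%), with -4.31 for Cebpa, 3.63 for Meis1, -2.93 for Mitf and 2.65 for Hoxa9. Spi1 had means of 7.92 to 8.98 in the marrow populations, 7.20 in DN1, 5.36 in DN2 and 2.55 in DN3. Whether any of these factors acted on the receptor genes was not tested.

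**Figure D4:**
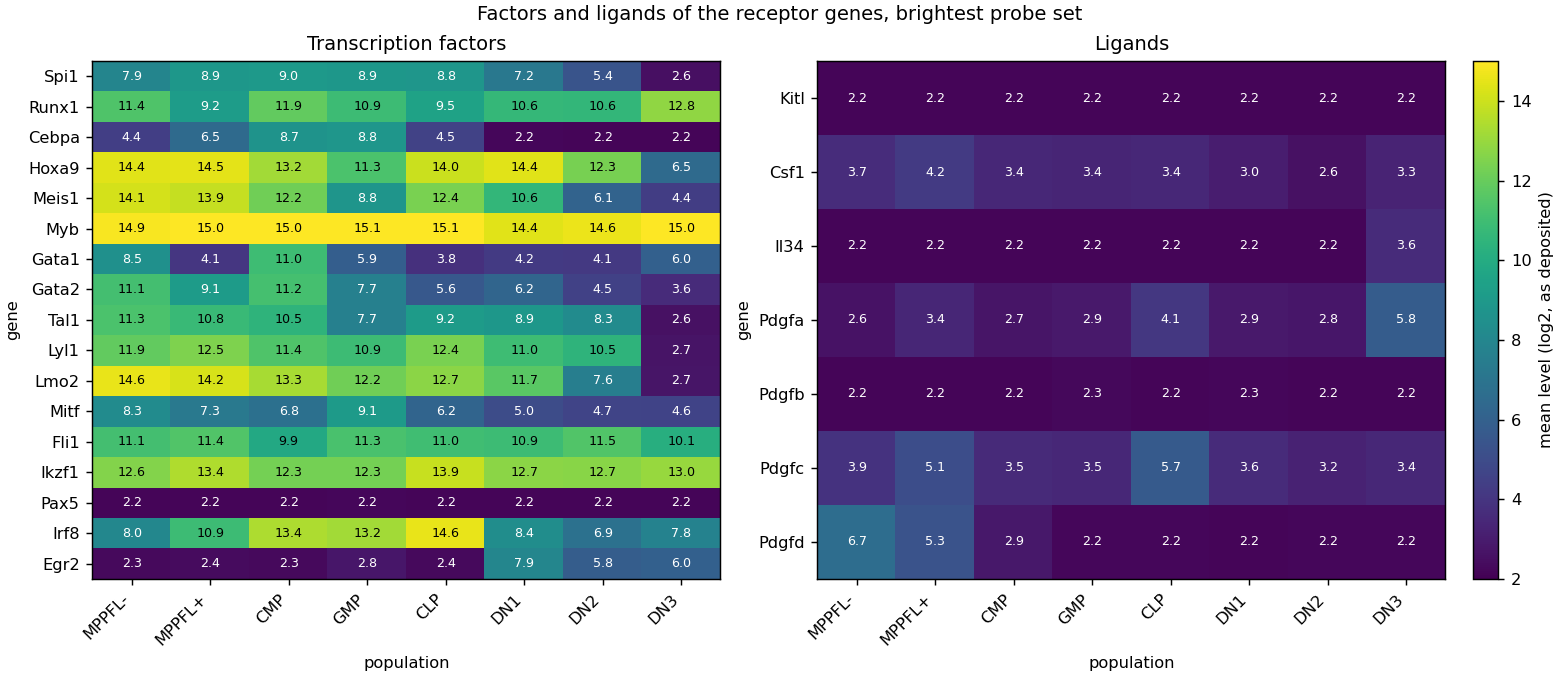
Rows are 17 transcription factors (left) and 7 ligands (right), columns the 8 populations, and cells give the mean log2 level of the brightest probe set (n = 5 arrays for MPPFL- and 3 otherwise). Spi1, Hoxa9, Meis1, Lmo2, Lyl1 and Tal1 have their lowest means in DN3, Irf8 its highest in CLP at 14.6, and the ligands stay under 7 throughout.

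Adaptors and signal carriers downstream of the receptors were measured for 27 of 34 listed genes. In DN1 against CLP, 3 were higher and 10 lower (median -0.61, beside 7.79% higher and 18.3% lower of all genes), with differences of -2.56 for Stat5a, a transcription factor activated downstream of Kit and Flt3, 2.05 for Pik3ca, a catalytic chain of phosphatidylinositol 3-kinase, and -1.70 and -1.64 for the kinases Akt1 and Akt2 (adjusted p = 6.27e-06, 1.54e-06, 2.53e-05 and 1.99e-05). In DN3 against DN2, 10 were higher and 6 lower (16.1% and 13.7% of all genes), with a bound of -4.79 for Fes, a tyrosine kinase of myeloid cells, -3.56 for the docking protein Gab2, 2.94 for Pik3cd and -2.69 for Plcg2. In GMP against CMP, 5 were higher and 3 lower (12.9% and 7.23%), with -3.68 for Fyn, a Src family kinase, -1.60 for Plcg1, 1.57 for Pik3cb and 1.40 for Map2k1. In CMP against MPPFL+, 3 were higher and 8 lower (4.82% and 17.2%), with -1.65 for Gab1, -1.42 for Sos2, -1.17 for Plcg2 and -1.13 for Plcg1. In MPPFL+ against MPPFL-, 4 were higher and 3 lower (10.4% and 5.13%), with 1.30 for Shc1, 1.24 for Stat3, -1.11 for Pik3ca and 0.87 for Pik3r1. DN2 against DN1 had 1 higher and 1 lower (3.57% and 3.79%), Stat5a with 1.81 and Fyn with -0.93, and CLP against MPPFL+ had 0 of either direction (2.31% and 3.66%). In CLP against GMP 4 were higher and 4 lower (15.9% and 11.1%), and Fyn was at 10.79 in CLP and 5.94 in GMP, with further differences of 2.56 for Plcg1, -2.51 for Pik3cb and -1.24 for Fes. Without the Xist arrays the differences in DN1 against CLP were -2.71 for Stat5a, 2.19 for Pik3ca, -1.89 for Akt1 and -1.24 for Akt2. In DN3 against DN2 they were -3.70 for Gab2, 2.88 for Pik3cd and -2.62 for Plcg2, with a bound of -4.70 for Fes. In DN2 against DN1 the calls on Stat5a (1.82) and Fyn (-0.95) were lost.

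Negative regulators of receptor signalling, 20 genes that were all measured, were lower in CMP than in MPPFL+ for 12 genes and higher for 1 (median -1.13, beside 17.2% lower and 4.82% higher of all genes). The differences were -2.74 for Spry2, a Sprouty inhibitor of the Ras pathway, -2.53 for Socs6, which binds Kit, -2.18 for Dusp6, a phosphatase of Erk kinases, and -2.12 for Sh2b3 (Lnk), an adaptor that restrains Kit. List counts were not rerun with quantile normalization or spike-in blocks, which changed the numbers over all probe sets in CMP against MPPFL+. In CLP against GMP, 8 were higher and 1 lower (median 0.71, beside 15.9% and 11.1% of all genes), with 3.88 for Sla2 and bounds of -5.69 for the adaptor Grb10, 3.04 for Spry1 and 2.63 for Dok2. In DN3 against DN2, 6 were higher and 6 lower (16.1% and 13.7%), with -4.78 for Dusp6, -4.23 for Ubash3b, 2.75 for Sla2 and 2.20 for the ubiquitin ligase Cblb. The Dusp6 means of DN1, DN2 and DN3 were 10.73, 8.89 and 4.11. In DN2 against DN1, 1 was higher and 2 lower (3.57% and 3.79%), with -2.57 for Spry2, a bound of 2.05 for Grb10 and -1.84 for Dusp6. In MPPFL+ against MPPFL-, 4 were higher and 2 lower (10.4% and 5.13%), with -3.43 for Grb10, 3.42 for Dusp6, 3.07 for the phosphatase Ptprj and 1.29 for Dok2. In DN1 against CLP, 2 were higher and 6 lower (7.79% and 18.3%), with -2.32 for Ptprj, -1.64 for the phosphatase Inpp5d (SHIP1), -1.54 for Spry2 and -1.44 for Rasa1. In GMP against CMP, 4 were higher and 2 lower (12.9% and 7.23%), with 1.88 for Socs6, 1.67 for Spry2, a bound of -1.59 for Dok2 and 1.44 for Sla. In CLP against MPPFL+ the only one that passed was Grb10, with a bound of -4.15 (2.31% and 3.66% of all genes). Leaving out the Xist arrays gave differences of -3.25 for Ptprj, -1.37 for Inpp5d and -1.54 for Rasa1 in DN1 against CLP, and -3.96 for Spry2 in DN2 against DN1. In DN3 against DN2 they were -4.23 for Dusp6, -4.37 for Ubash3b, 2.27 for Sla2 and 1.66 for Cblb. The calls lost among those named were Spry2 in DN1 against CLP (-0.57) and Dusp6 and Grb10 in DN2 against DN1 (-2.49 and 1.92).

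The genes whose 8 population means were most like those of a receptor were sought among 10085 genes whose highest population mean reached the median of gene means, 5.31. Likeness was the Pearson correlation with the brightest probe set, given as a description over 8 points that share their arrays. For Flt3 they were Hmga2, a chromatin protein (0.965), Tmsb10, a thymosin (0.964), the tyrosine kinase Syk (0.962), Inka1 (0.960) and H2-Eb1, a class II histocompatibility chain (0.959). For Kit they were Fry (0.971), Tmem40 (0.968), the corepressor Ctbp2 (0.961), Cyp4v3 (0.960) and the cytokine Il15 (0.960). For Csf1r they were Otulinl (0.966), Tecr (0.962), the heparanase Hpse (0.946), Ahnak (0.942) and Amdhd2 (0.934), and for Pdgfrb the potassium channel Kcnn4 (0.991), Homer3 (0.987), Ndufa6 (0.980), the ribosomal protein Rps18 (0.978) and the kinase Abl2 (0.973). Over the 26 arrays in place of the means, 2, 3, 4 and 2 of these names stayed among the top 5 for Flt3, Kit, Csf1r and Pdgfrb. By Spearman correlation of the means all genes tied at place 5 were kept, which gave 24, 16, 6 and 9 genes. Of the names above, 3, 2, 1 and 0 were among them, so these counts are not those of a top 5. Among the receptors themselves the correlation of the 8 means of the brightest probe sets was 0.620 for Flt3 with Kit, 0.538 for Flt3 with Csf1r, 0.383 for Flt3 with Pdgfrb and -0.330 for Csf1r with Pdgfrb.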

How the data were processed

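Values were log2 expression levels in the table deposited by the authors, with 1 column per array. Their normalization and summary per probe set are not given in the sources used here. Per the labels' protocols, RNA was extracted with Trizol and biotin-labelled cRNA was made by the array maker's protocol. No counts or scan dates were used, so the number of arrays limits precision. Of 45101 probe sets, 34945 were paired with 1 gene, 932 with several and 9160 with none by the array annotation, and 64 were array controls. Groups came from the titles. The values were used as deposited, without further scaling or filter. limma 3.58.1 in R 4.3.3 (lmFit, eBayes) was fitted to all 26 arrays with population as the only term (18 residual and 0.482 prior degrees of freedom), two-sided, with Benjamini-Hochberg adjustment over 45037 probe sets. It was tested on simulated data. The brightest probe set of a gene had the highest mean over all arrays. The members, gene lists and comparisons were chosen with earlier results of these data known. Every receptor was named whatever its test, with up to 4 genes per list and comparison that passed with the largest difference, all measured ligands, and the 5 genes most like each receptor. Dusp6, Fyn and Spi1 levels across populations, Xist and the marker values were named as checks or after values were seen. Alternatives were quantile normalization, 1 probe set per gene, dim probe sets left out, an intensity trend, a robust prior, only the populations compared, the replicate number as a block, spike-in clusters, and single arrays or the Xist arrays left out. Leaving out the Xist arrays for the gene lists, and the rule for lower bounds, were chosen after seeing the data. Replicate numbers shared by titles were checked for pairing: 4 of 24 same-number correlations of deviations exceeded 0.1 (range -0.57 to 0.41), so numbers were not taken as pairs.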

Additional observations from a re-analysis of the deposited data

Results flagged for a closer look

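A single MPPFL- array was set apart from the other 4 by a ratio for 3 of the 11 probe sets. The ratio was the gap of the extreme array to its nearest neighbour divided by the range of the 5 arrays, and about 1 group in 20 would exceed the limit by chance. For Csf1r 1423593_a_at the ratio was 0.830, with replicate 2 at 4.48 and the next array at 3.95. The same array was also highest among MPPFL- for the other Csf1r probe sets, at 7.69 on 1419872_at and 4.35 on 1419873_s_at. For Pdgfra 1438946_at the ratio was 1, with replicate 5 at 3.02 and the other arrays tied at 2.18. With such a tie any differing array gives a ratio of 1, and the share of 1 group in 20 does not apply. For Pdgfra 1421916_at the ratio was also 1, where replicate 2 and the floor both read 2.17 to 2 decimals. That ratio comes from the tie of the other arrays at the floor and not from a distance. The populations with 3 arrays were not examined in this way.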

How the results depend on the processing

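Of 64 differences in the receptors other than Pdgfra, 38 passed, and none of these reversed under any alternative run. All 38 held without dim probe sets, with an intensity trend and with a robust prior, 37 held after quantile normalization, and all 19 of the brightest probe sets held with 1 probe set per gene. With the replicate number as a fixed block 36 of 38 held; the calls on Csf1r 1423593_a_at in MPPFL+ against MPPFL- (1.21, adjusted p = 0.0528) and 1419873_s_at in DN1 against CLP (-0.90, adjusted p = 0.0932) were lost, and all probe sets passing in MPPFL+ against MPPFL- numbered 4436 in place of 6759. The numbers do not pair the samples. With spike-in clusters as a random block (correlation 0.392) 32 of 38 held. The 6 calls lost were Pdgfrb 1436970_a_at in CMP against MPPFL+ (adjusted p = 0.228), Csf1r 1423593_a_at in GMP against CMP (0.255), Csf1r 1419873_s_at in DN1 against CLP (0.462) and CLP against GMP (0.319), Pdgfrb 1417148_at in DN3 against DN2 (0.235) and Kit 1415900_a_at in CLP against GMP (0.313). All probe sets passing numbered 2432 in CMP against MPPFL+ (7205 without the block), 2688 in GMP against CMP (7275), 3904 in DN1 against CLP (10416), 5439 in DN3 against DN2 (10763) and 4067 in CLP against GMP (9351). These comparisons cross clusters, so cluster and population cannot be told apart there. Of 15 calls between populations of 1 cluster, 11 held within it; in DN2 against DN1, 2 receptor probe sets and 297 in all passed there. Leaving out single arrays kept 220 of 236 calls. The number of all probe sets passing in MPPFL+ against MPPFL- ran from 4407 (without MPPFL+ replicate 2) to 7193. Without the Xist arrays the calls on Csf1r 1423593_a_at and on Pdgfrb in DN2 against DN1 were lost.

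Fits to only the populations compared, with 6 or 8 arrays, kept 19 of 38 calls. Beside those named with the comparisons, Csf1r 1423593_a_at in MPPFL+ against MPPFL- and GMP against CMP, Csf1r 1419873_s_at in DN1 against CLP and CLP against GMP, and Kit 1415900_a_at in CLP against GMP were lost (adjusted p = 0.05, 0.0608, 0.146, 0.0731 and 0.121). Receptor probe sets passing then numbered 3 in CMP against MPPFL+, 0 in CLP against MPPFL+, 2 in DN2 against DN1 and 1 in DN3 against DN2, and all probe sets 1225, 649, 297 and 6107 in that order of comparisons, with 2564 in GMP against CMP and 5257 in DN1 against CLP. With 1 probe set per gene, where fewer features were tested, 2886, 4379, 3891, 1190, 4890, 1475, 5652 and 5152 genes passed in the order in which the comparisons were given. Kit differences that had not passed changed sign. In MPPFL+ against MPPFL- 1415900_a_at was 0.026 after quantile normalization, and it ran from -0.21 to 0.25 when single arrays were left out, with 0.06 and 0.02 without MPPFL- replicates 1 and 2, while 1452514_a_at ran from -0.19 to 0.14. In GMP against CMP 1452514_a_at was -0.27 after quantile normalization and ran from -0.36 to 0.30, with -0.04 without GMP replicate 1, and 1415900_a_at ran from -0.49 to 0.19. In DN1 against CLP 1415900_a_at was -0.046 after quantile normalization and -0.34 without the Xist arrays, and it ran from -0.16 to 0.36, with -0.11 and -0.04 without DN1 replicates 1 and 3. The cause of these changes was not tested.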

Other observations

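Among the other receptor tyrosine kinases, 22 of 23 listed genes were measured. Higher and lower were 1 and 1 in MPPFL+ against MPPFL- (10.4% and 5.13% of all genes) and 2 and 3 in CMP against MPPFL+ (4.82% and 17.2%). They were 3 and 2 in GMP against CMP (12.9% and 7.23%) and 1 and 4 in CLP against MPPFL+ (2.31% and 3.66%). DN1 against CLP had 1 and 1 (7.79% and 18.3%) and DN2 against DN1 1 and 1 (3.57% and 3.79%). DN3 against DN2 had 5 and 1 (16.1% and 13.7%) and CLP against GMP 2 and 4 (15.9% and 11.1%). Only 4 to 8 of the 22 reached the median of all values on every array of a population. Differences called bounds have the lower population at its low end. Tek (Tie2), the angiopoietin receptor, was at 3.88 in MPPFL+ against 8.36 in MPPFL-, a fall of 4.48 (SE 0.23, adjusted p = 2.49e-10), and was 2.59 higher in CMP than in MPPFL+, with a bound of -4.17 in GMP against CMP. Met, the receptor of hepatocyte growth factor, was at 9.73 in CMP against 5.41 in MPPFL+ (adjusted p = 1.52e-06) and at 11.76 in GMP, and its difference in CLP against GMP was -7.51 (4.25 and 11.76, adjusted p = 1.84e-10). Mst1r (Ron), the receptor of macrophage stimulating protein, was at 5.92 in CLP against 2.26 in MPPFL+. Its means in the thymocyte stages DN1, DN2 and DN3 were 2.41, 6.57 and 8.69, with a bound of 4.17 in DN2 against DN1 and a rise of 2.12 in DN3 against DN2 (adjusted p = 3.58e-10 and 6.65e-07). Erbb3, a neuregulin receptor, rose by 2.99 in DN3 against DN2 and by 1.5 in GMP against CMP. In DN3 against DN2 Met was the member that passed as lower, and Axl passed as higher (adjusted p = 0.000146 and 0.000926). Igf1r, the receptor of insulin-like growth factor 1, was the only other member that passed in DN2 against DN1, with 9.01 in DN2 against 9.998 in DN1. Its call was lost without the Xist arrays (-0.98). In that fit Mst1r differed by 4.90 in DN2 against DN1, and Mst1r by 1.45 and Erbb3 by 2.45 in DN3 against DN2.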
